A study of Mus musculus with 4 samples.

Results

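Transcripts that mark macrophages, monocytes and dendritic cells were examined in RNA from sorted lung group 2 innate lymphoid cells (ILC2s), tissue lymphocytes that make the type 2 cytokines IL-5 and IL-13. The members were 36 genes chosen by symbol, of 38697 genes in the authors' deposited table, and all 36 had a row. They fall into 6 alveolar macrophage, 5 profibrotic macrophage, 14 general macrophage, 5 monocyte and 6 dendritic cell genes. Knockout (KO) mice were R5/+ Nrp1f/f and wild-type (WT) mice were R5/+, all C57BL/6 and all given bleomycin, a drug that injures the lung and leads to fibrosis. Both genotypes carry R5, known as an Il5 reporter that encodes Cre recombinase too, and Cre from this locus removes floxed Nrp1 where Il5 has been expressed. There were 4 samples, 2 KO and 2 WT, each a pool of 3 to 4 mice. The sources used here do not give age, sex, or the dose and time of bleomycin. The comparison asks how the ILC2 transcriptome differs when Nrp1 is removed, the gene of neuropilin-1, a surface receptor that binds semaphorins and growth factors.

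Mononuclear phagocytes of the lung include alveolar macrophages in the airspace, which clear surfactant and depend on GM-CSF, interstitial macrophages, and monocytes that enter from blood after injury and become macrophages. In fibrotic lung, monocyte-derived macrophages are known for a lipid-handling and matrix programme marked by Spp1, Gpnmb, Trem2 and Apoe. Dendritic cells take antigen to lymph nodes, and their conventional and plasmacytoid types carry separate receptors. ILC2s are lymphoid, and textbook gating removes cells bearing myeloid lineage markers, although the sources used here do not give the gate.

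The values are the authors' own comparison. Their table gives each gene a baseMean, the mean normalized count over the libraries, a fold change on the log2 scale, the standard error (SE) of that change, and p before and after adjustment. Values per library were not used here, so levels are means over both genotypes, and a mean for each genotype was derived from baseMean together with the fold. Positive log2 values mean higher in KO. This rests on the table's name putting WT first, and the opposite reading would turn every direction. With WT read as first, Nrp1 stood at -1.18 ± 0.21 (SE) with an adjusted p of 1.27e-04 per the authors' deposited table. The baseMean values of all genes sum to 12974883, and the members hold 0.130% of that sum. ILC2 genes were abundant, the 14 listed having a median of 1992 normalized counts per kb of exon, led by Areg, an epidermal growth factor family ligand, at 11556. None of the 14 passed the test per the authors' deposited table. All 14 had negative log2 values, and 6 of them had an unadjusted p under 0.05. Over all tested genes 3.95% were lower at that threshold, but this share covers every abundance, and the ILC2 list had a median baseMean of 10870. Negative values were the rule for abundant genes of any kind. Where baseMean reached 1000 or more, just 7.1% were positive, and the median log2 was -0.25. The 14 differed from the median of tested genes nearest in baseMean by a median of -0.08, and 5 lay above it.

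Of the 34 members with an adjusted p, 0 were higher in KO and 0 were lower (adjusted p under 0.05) per the authors' deposited table. Over all 19193 genes with an adjusted p, 0.453% were called higher and 0.099% lower. At an unadjusted p under 0.05, 4 of the 34 members were higher (Retnla, Flt3, Csf1r and Trem2) and 1 was lower (Zbtb46), against 9.62% higher and 3.95% lower over all tested genes. The shares of members are thus near the background. Fabp1 and Fcgr1, the other two members, had no adjusted p. Their baseMean was 3.16 for Fabp1 and 6.02 for Fcgr1, and the lowest baseMean with an adjusted p was 6.71, all per the authors' deposited table. These are bulk samples, so fewer cells of a type and less RNA per cell cannot be told apart.

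The members spanned a wide range of levels, and only 1, Lyz2, stood above the median of the ILC2 genes. Lyz2, a lysozyme gene listed here as a macrophage marker, stood at 6825 normalized counts per kb of exon, and Areg was 1.69 times higher on that per-length scale. Which cells made the Lyz2 transcripts cannot be told from bulk samples. Spp1, which encodes the secreted matrix protein osteopontin, came next at 1293 counts per kb. Chil3, the chitinase-like protein Ym1, stood at 474, Apoe, an apolipoprotein, at 436, and Lgals3, which encodes galectin-3, at 329 counts per kb. Lyz2 alone held 53.1% of the members' summed baseMean. The receptors that define macrophages were far lower. Csf1r, the receptor for CSF1, stood at 20.5 counts per kb and Adgre1, which encodes F4/80, at 15.4. Lyz2 exceeded Adgre1 by 444 times and Cd68, a lysosomal glycoprotein, by 54.0 times on the per-length scale. The lowest member was Cd163, a haemoglobin scavenger receptor, at 2.28 counts per kb.

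**Figure D1:**
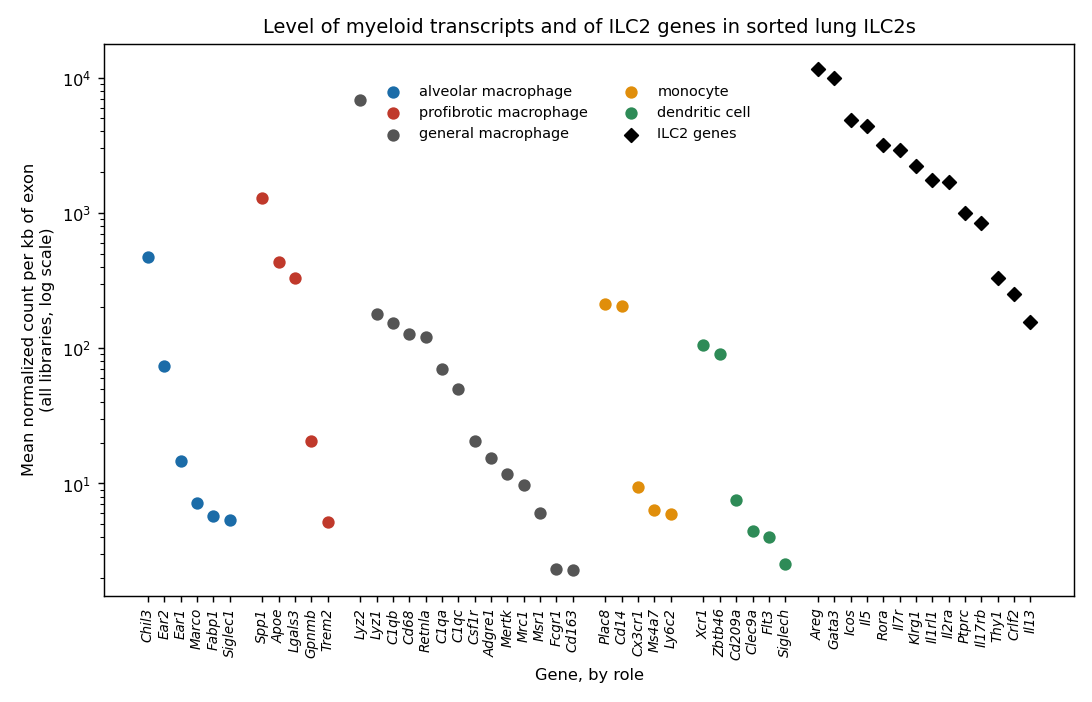
Mean normalized count per kb of exon (log scale) of the 36 members by role and of 14 ILC2 genes, each point 1 gene averaged over all libraries, with no error because values per library were not used. Lyz2 at 6825 lies above the ILC2 median of 1992, while Csf1r at 20.5 and Adgre1 at 15.4 lie below all 14 of them.

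Genes of 1 cell type did not stand at 1 level. Among alveolar macrophage genes Chil3 was 66.2 times higher per length than Marco, a scavenger receptor. Among dendritic cell genes, Xcr1, the receptor for the chemokine XCL1, stood at 105 counts per kb and Zbtb46, a transcription factor of conventional dendritic cells, at 90.4. Clec9a, the dead-cell receptor found with Xcr1 on the same dendritic cell type, stood at 4.48 counts per kb, so Xcr1 was 23.4 times higher. Flt3, the receptor that dendritic cell precursors need, stood at 4.02, and Zbtb46 was 22.5 times higher. Among monocyte genes Plac8, a small cysteine-rich protein, was 35.3 times higher per length than Ly6c2, a surface protein of inflammatory monocytes. Among profibrotic genes Spp1 was 62.8 times higher than Gpnmb, a glycoprotein of lipid-laden macrophages, and 249 times higher than Trem2, a lipid-sensing receptor. The C1q chains, the 3 subunits of the complement starter C1q, lay closer together. C1qb stood at 153, C1qa at 69.6 and C1qc at 49.9 counts per kb. C1qa and C1qc lie 2851 bp apart and C1qc and C1qb 3616 bp apart on chromosome 4 (mm10).

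Near-identical copies limit the values of the 4 members compared here, and their sequences are shown for that reason. The other members were not searched for such copies, so they may share this limit. Lyz2 (chromosome 10, 117277331 to 117282321, minus strand, mm10) and Lyz1 (117287797 to 117292868, same strand) are neighbouring lysozyme genes 5475 bp apart. Their coding sequences of 447 bases each are identical at 425 bases (95.1%), with a longest identical run of 118 bases. Ear2 (chromosome 14, 44102654 to 44103534, plus strand) and Ear1 (43818765 to 43875517, minus strand) encode ribonucleases of the eosinophil-associated family. Of 468 aligned coding bases they share 448 (95.7%), with a longest identical run of 96 bases. How reads from such shared runs were counted is not given in the sources used here, so the split within each pair is uncertain. The first 150 coding bases of each, from GENCODE M21, are given 5′ to 3′ with the bases that differ within the pair in capitals, 14 for the lysozymes and 5 for the ribonucleases.
Lyz2: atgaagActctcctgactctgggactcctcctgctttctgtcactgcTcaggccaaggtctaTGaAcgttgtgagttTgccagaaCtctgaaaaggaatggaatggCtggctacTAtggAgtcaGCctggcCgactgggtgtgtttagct
Lyz1: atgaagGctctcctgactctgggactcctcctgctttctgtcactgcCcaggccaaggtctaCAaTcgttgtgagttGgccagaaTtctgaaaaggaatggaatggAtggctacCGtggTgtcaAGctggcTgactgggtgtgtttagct
Ear2: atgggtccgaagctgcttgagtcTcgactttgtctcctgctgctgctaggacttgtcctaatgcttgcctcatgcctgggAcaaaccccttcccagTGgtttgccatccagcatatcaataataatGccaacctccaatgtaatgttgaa
Ear1: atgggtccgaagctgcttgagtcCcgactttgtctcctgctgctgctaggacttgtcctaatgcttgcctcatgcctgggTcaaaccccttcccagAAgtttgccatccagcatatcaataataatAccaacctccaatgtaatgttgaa
On the per-length scale Lyz2 was 38.4 times higher than Lyz1, and Ear2 was 5.03 times higher than Ear1. Some other members share exonic bases with a neighbouring gene in GENCODE M21. The share of exonic length was 18.8% for Spp1 (with Gm42793), 15.1% for Csf1r (with Hmgxb3, opposite strand), 5.6% for Clec9a (with Clec1b), 2.3% for Ear1 (with Ear-ps9) and 1.7% for Cx3cr1 (with Gm33858, opposite strand).

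Retnla had the smallest p of the members. It encodes RELM-alpha, a secreted protein that IL-4 and IL-13 induce in macrophages. Its derived means were 117 normalized counts in KO and 26.9 in WT. The log2 difference was 2.12 ± 0.70 (SE), with an unadjusted p of 0.00253 and an adjusted p of 0.119 per the authors' deposited table. The 95% interval of the fold ran from 1.68 to 11.3, but a gene with this error needed a log2 difference of 2.56 to pass the test. Tested genes nearest to it in abundance had a median log2 of 0.20, and Retnla lay 1.92 above it. Such a running median over neighbours in baseMean is called the median of genes of like abundance in what follows.

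Promoter windows from RefSeq (GRCm38.p6, 250 bases before to 50 after a gene's start) were matched for 30 of the 36 members. Siglec1, C1qa, Csf1r, Adgre1, Msr1 and Cd14 had no entry. The letters GAGGAA, a core found in sites of the myeloid factor PU.1, occurred on either strand (TTCCTC) in 15 of the 30 windows and in 28.3% of 27025 windows of all genes. These matches are descriptions and not shown to be bound sites. Retnla is shown because it had the smallest p and holds 1 match, with its window on the plus strand at chr16:48842359-48842658. C1qb (minus strand, chr4:136886151-136886450) and C1qc (minus strand, chr4:136892865-136893164) are shown as neighbours that also hold 1 match each. The matches are in capitals, and the sequences run 5′ to 3′.
Retnla: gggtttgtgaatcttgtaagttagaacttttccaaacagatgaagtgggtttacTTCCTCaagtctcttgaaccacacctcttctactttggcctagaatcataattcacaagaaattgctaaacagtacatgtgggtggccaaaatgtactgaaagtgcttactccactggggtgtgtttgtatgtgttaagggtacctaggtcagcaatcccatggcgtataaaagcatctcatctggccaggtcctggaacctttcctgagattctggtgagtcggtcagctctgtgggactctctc
C1qb: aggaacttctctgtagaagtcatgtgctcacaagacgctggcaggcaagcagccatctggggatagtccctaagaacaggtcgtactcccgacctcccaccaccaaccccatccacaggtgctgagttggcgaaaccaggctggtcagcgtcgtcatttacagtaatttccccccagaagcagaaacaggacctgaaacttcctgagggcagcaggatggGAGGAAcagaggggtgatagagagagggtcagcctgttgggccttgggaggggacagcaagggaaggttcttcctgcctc
C1qc: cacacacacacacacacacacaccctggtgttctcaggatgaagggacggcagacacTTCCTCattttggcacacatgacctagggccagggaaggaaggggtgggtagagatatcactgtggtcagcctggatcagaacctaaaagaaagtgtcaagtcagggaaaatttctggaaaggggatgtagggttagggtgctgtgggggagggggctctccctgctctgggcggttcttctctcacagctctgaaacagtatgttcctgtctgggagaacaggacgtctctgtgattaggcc

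None of the 5 tested alveolar macrophage genes passed. Chil3 had derived means of 790 normalized counts in KO and 757 in WT, a log2 difference of 0.06 ± 0.95 (SE) per the authors' deposited table, so its interval ran from a fold of 0.288 to 3.78. Siglec1, the sialic acid receptor sialoadhesin, had the smallest p of the group. Its derived means were 58.2 in KO and 18.1 in WT, with a log2 of 1.68 ± 0.88 and an adjusted p of 0.385 per the authors' deposited table. Marco stood at 14.6 in KO and 12.9 in WT. Ear2, at 43.7 in KO and 62.7 in WT, had a log2 of -0.52 ± 0.76, and Ear1, at 16.9 in KO and 4.61 in WT, had 1.87 ± 1.57 per the authors' deposited table. The signs of the ribonuclease pair thus differed, within their errors and with the read-sharing limit above. The median of genes of like abundance was 1.80 for Ear1, near its own value, and 0.36 for Ear2. Fabp1, a fatty acid binding protein, had a derived WT mean under 1 count (0.376, against 5.95 in KO), so no fold is given.

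All 5 profibrotic macrophage genes had positive log2 values and none passed, with a group median of 0.75 over derived sums of 4185 normalized counts in KO and 3485 in WT. Spp1, the most abundant, had derived means of 2158 in KO and 2105 in WT. Its log2 of 0.04 ± 1.13 per the authors' deposited table left an interval from a fold of 0.220 to 4.78, so the comparison hardly bounds it. Lgals3 was measured more tightly, at 641 in KO and 583 in WT, a log2 of 0.14 ± 0.26 per the authors' deposited table and a fold between 0.775 and 1.56. Apoe stood at 1169 in KO and 694 in WT (log2 0.75 ± 0.70, adjusted p = 0.687 per the authors' deposited table). The derived means of Gpnmb were 175 in KO and 92.8 in WT, with a log2 of 0.92 ± 0.53 and an adjusted p of 0.444 per the authors' deposited table. Trem2, at 41.3 in KO and 9.999 in WT, had a log2 of 2.05 ± 1.03 and an unadjusted p of 0.0472 (adjusted 0.360) per the authors' deposited table.

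Of the 13 tested general macrophage genes, all had positive log2 values and none passed, with a median of 0.72, but Cd163 and Adgre1 turned negative relative to genes of like abundance. Lyz2 was the best measured, with derived means of 9431 normalized counts in KO and 8532 in WT. Its log2 was 0.14 ± 0.20 (adjusted p = 0.802) per the authors' deposited table, and the 95% interval of its fold was 0.844 to 1.45. Lyz1 stood at 265 in KO and 184 in WT, with an error of 1.49 on the log2 scale per the authors' deposited table. Csf1r had derived means of 162 in KO and 74.7 in WT, with a log2 of 1.12 ± 0.55, an unadjusted p of 0.0423 and an adjusted p of 0.341 per the authors' deposited table. Cd68 stood at 198 in KO and 120 in WT (log2 0.72 ± 0.43), and Adgre1 at 55.7 in KO and 43.8 in WT (0.34 ± 0.73), per the authors' deposited table. The C1q chains had log2 values of 0.56 ± 0.58 for C1qb, 0.48 ± 0.71 for C1qa and 0.25 ± 0.68 for C1qc per the authors' deposited table.

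Receptors for apoptotic cells, mannose and modified lipoprotein stood in the same range. Mertk, a kinase receptor for dying cells, had derived means of 74.9 in KO and 26.9 in WT, with a log2 of 1.48 ± 0.76 and an adjusted p of 0.377 per the authors' deposited table. Mrc1, the mannose receptor CD206, stood at 85.4 in KO and 37.8 in WT (1.17 ± 0.72) per the authors' deposited table. Msr1, the type A scavenger receptor, stood at 48.4 in KO and 27.98 in WT, and Cd163 at 16.5 in KO and 8.36 in WT. Fcgr1, the high-affinity IgG receptor, had derived means of 9.42 in KO and 2.61 in WT and no adjusted p.

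Among 5 monocyte genes 4 had positive log2 values and none passed, and Ly6c2 turned negative relative to genes of like abundance. Cd14, the lipopolysaccharide co-receptor, had derived means of 389 normalized counts in KO and 317 in WT, a log2 of 0.29 ± 0.39 per the authors' deposited table. Plac8 ran the other way, at 295 in KO and 376 in WT, with a log2 of -0.35 ± 0.40 per the authors' deposited table. Their intervals, folds of 0.722 to 2.08 for Cd14 and 0.454 to 1.36 for Plac8, both include no change. Cx3cr1, the fractalkine receptor, stood at 58.1 in KO and 26.3 in WT, and Ms4a7, a tetraspanning protein of macrophages, at 42.3 in KO and 14.3 in WT, with adjusted p of 0.540 and 0.510 per the authors' deposited table. Ly6c2 stood at 17.7 in KO and 15.0 in WT.

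The 6 dendritic cell genes split by abundance, and none passed. Zbtb46 was the only member with a negative log2 value and an unadjusted p under 0.05. Its derived means were 591 normalized counts in KO and 947 in WT, with a log2 of -0.68 ± 0.25, an unadjusted p of 0.00672 and an adjusted p of 0.164 per the authors' deposited table. The median of genes of like abundance was -0.22, so Zbtb46 lay below it. Xcr1 stood at 447 in KO and 487 in WT, a log2 of -0.12 ± 0.26 per the authors' deposited table, with a fold between 0.640 and 1.31. Flt3, at 42.9 in KO and 6.77 in WT, had the highest log2 of the tested members, 2.67 ± 1.17, with an unadjusted p of 0.0229 and an adjusted p of 0.265 per the authors' deposited table. Clec9a stood at 19.9 in KO and 9.57 in WT, and Cd209a, a C-type lectin of monocyte-like dendritic cells, at 17.7 in KO and 6.38 in WT. Siglech, a receptor of plasmacytoid dendritic cells, stood at 11.9 in KO and 5.24 in WT. Of the group's 6 values, 2 lay above the median of genes of like abundance.

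**Figure D2:**
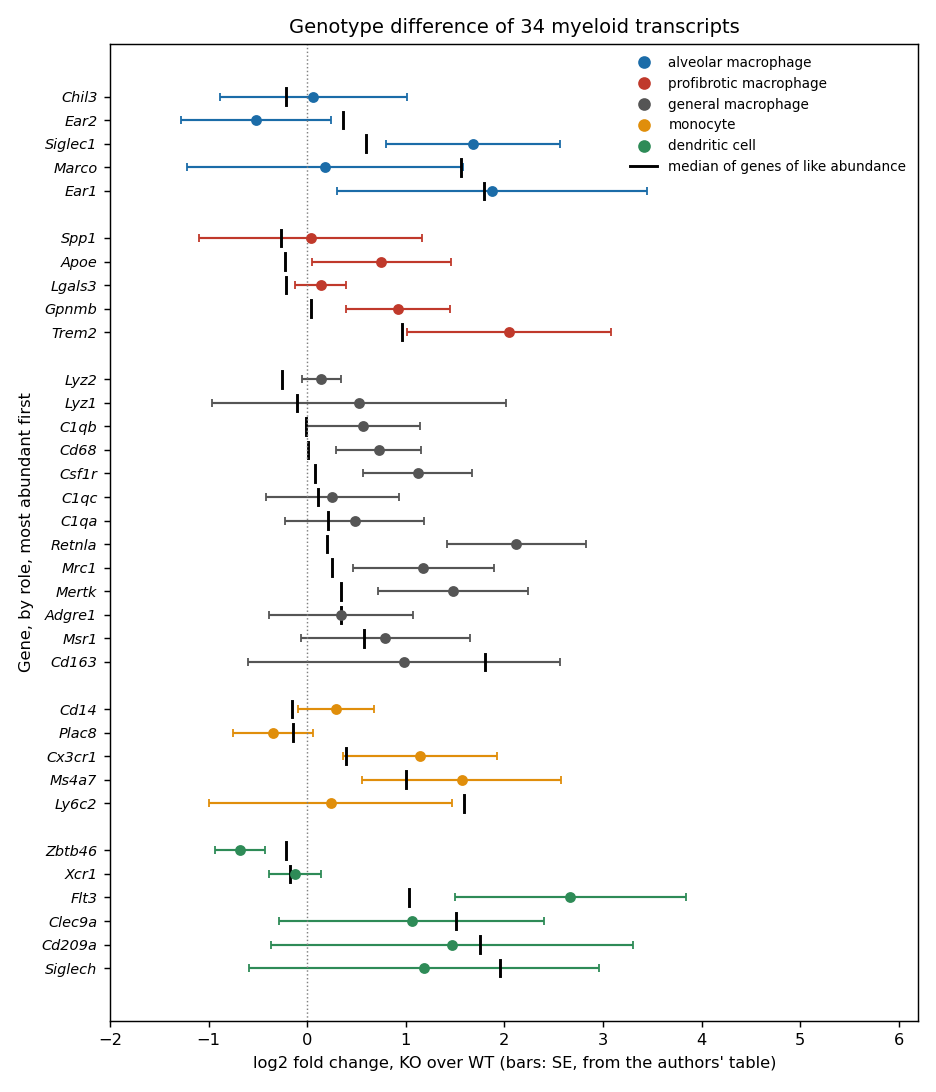
Log2 fold change, KO over WT, of the 34 members with an adjusted p, as points with the authors' SE as bars, coloured by role; black ticks are the median of genes of like abundance. The ticks move to the right for less abundant genes, so a positive value such as that of Marco (0.18) lies below its tick (1.56), while Retnla (2.12) lies above its own (0.20).

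Most members were scarce, 22 of the 36 having a baseMean under 100, and in this table scarce genes of any kind lean to positive values. Of all tested genes with a baseMean under 20, 88.1% had positive log2 values, and 7 of 7 members did. The share was 79.3% between 20 and 50, where 7 of 7 members were positive, and 64.7% between 50 and 100, where 5 of 6 were. Among more abundant genes the background turns and the members did not follow it to the same degree. Between 100 and 300, 44.1% of all tested genes and 5 of 5 members were positive, with medians of 0.72 for the members and -0.05 for all. Between 300 and 1000, 18.3% of all and 4 of 7 members were positive, and at 1000 or more 7.1% of all and 2 of 2 members, Lyz2 and Spp1. Over the 14 members with a baseMean of at least 100, the median log2 was 0.22, against -0.19 for all 9225 such genes, and 12 of the 14 lay above the median of genes of like abundance. Among other marker lists in that range the count above it was 7 of 7 for epithelium, 5 of 5 for fibroblasts, 6 of 6 for endothelium and 5 of 5 for red cells. The count was 0 of 4 for the T cell list, Trbc1, Trbc2 and Cd3g among them, and 5 of 14 for ILC2s. Of the genes in the companion lists described last, 51 of 75 in that range lay above it. Over all 34 tested members the median was 0.74, 24 lay above genes of like abundance, and 54.0% of all tested genes had positive values. These counts carry no test.

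**Figure D3:**
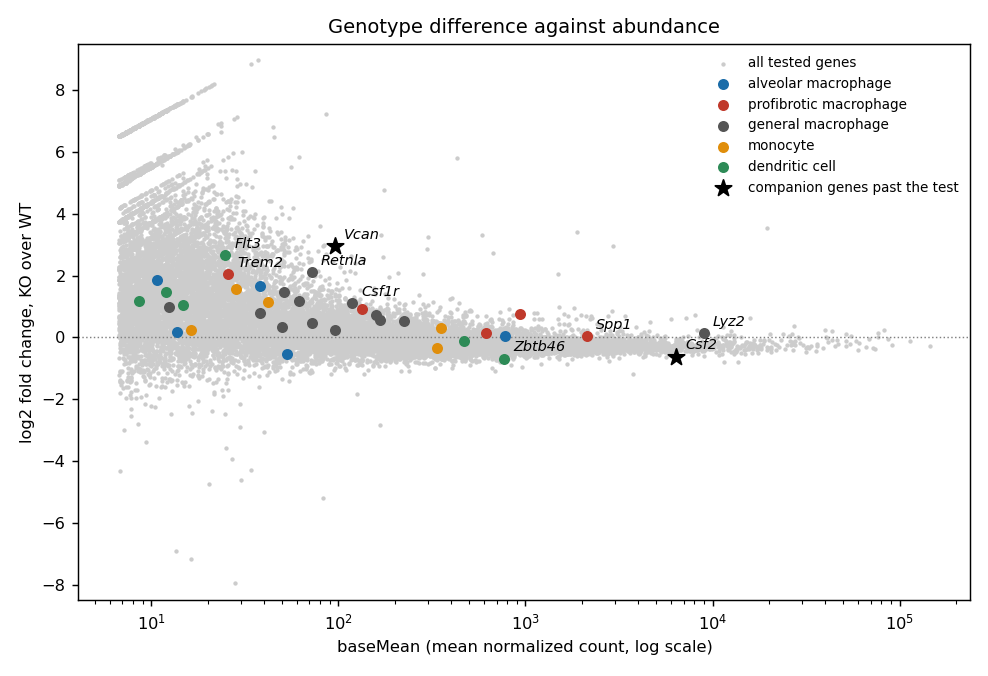
Log2 fold change, KO over WT, against baseMean (log scale) for all tested genes in grey, members coloured by role, and stars for Vcan and Csf2, the companion genes past the test. The grey cloud tilts to positive values at low baseMean, where most members lie, and Retnla at 2.12, Flt3 at 2.67 and Zbtb46 at -0.68 are labelled.

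The errors of the members were uneven when set against the median SE of genes of like abundance. The ratio to that median was 1.07 for Zbtb46 and 1.26 for Lyz2. Spp1 had an SE 6.23 times that of like genes, Chil3 4.06 times, Lyz1 4.01 times and Apoe 3.18 times. Such ratios over 2 occurred in 4 of 34 members and in 1.13% of all tested genes. Spp1 would have needed a log2 difference of 4.12 to pass, against 0.72 for Lyz2. No dendritic cell or monocyte gene had a ratio over 2, but only 2 of each had a baseMean of at least 100. The 4 members over 2 had a baseMean from 224.6 to 2131. How often such ratios occur at each abundance was not examined.

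Wide errors of this kind were also found in markers of other lung cells. Ratios over 2 occurred in 5 of 8 lung epithelial genes, 3 of 6 fibroblast genes, 4 of 6 red cell genes, 2 of 7 B and plasma cell genes and 1 of 6 endothelial genes. They occurred in 0 of 14 ILC2 genes, 0 of 8 tested T cell genes and 0 of 5 tested neutrophil genes. No neutrophil gene had a baseMean of 100 or more, so that list was not compared at the abundance of the members with wide errors. The derived sums were 14400 normalized counts in KO and 8639 in WT for the epithelial list, 6721 in KO and 3868 in WT for the fibroblast list, and 7783 in KO and 4856 in WT for the red cell list. These sums carry no error. The most abundant gene of each list was poorly bounded, with log2 values of 0.60 ± 1.44 for Sftpc, 0.70 ± 1.22 for Col3a1 and 0.84 ± 1.08 for Hba-a1 per the authors' deposited table. Sums ran the other way for the T cell list, at 5573 in KO and 7712 in WT, and the platelet list, at 137 in KO and 188 in WT. They did so too for the neutrophil list, at 137 in KO and 143 in WT, and the ILC2 list, at 163152 in KO and 195742 in WT. Over all genes the derived sum was itself lower in KO, at 12196100 against 13753600 in WT. The T cell list's summed baseMean of 6643 came mostly from Trbc1 (2938), Trbc2 (2525) and Cd3g (963), while Cd3e stood at 51.8 and Cd3d at 18.1. Whether T cells or the ILC2s made these transcripts was not tested. No gene of the epithelial, fibroblast and red cell lists was at 0, and none passed the test per the authors' deposited table. The members' summed derived level was 17897 in KO and 15919 in WT, or 8466 in KO and 7387 in WT without Lyz2. Whether the amount of other lung cells in each pool had a part in the members' values was not tested.

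**Figure D4:**
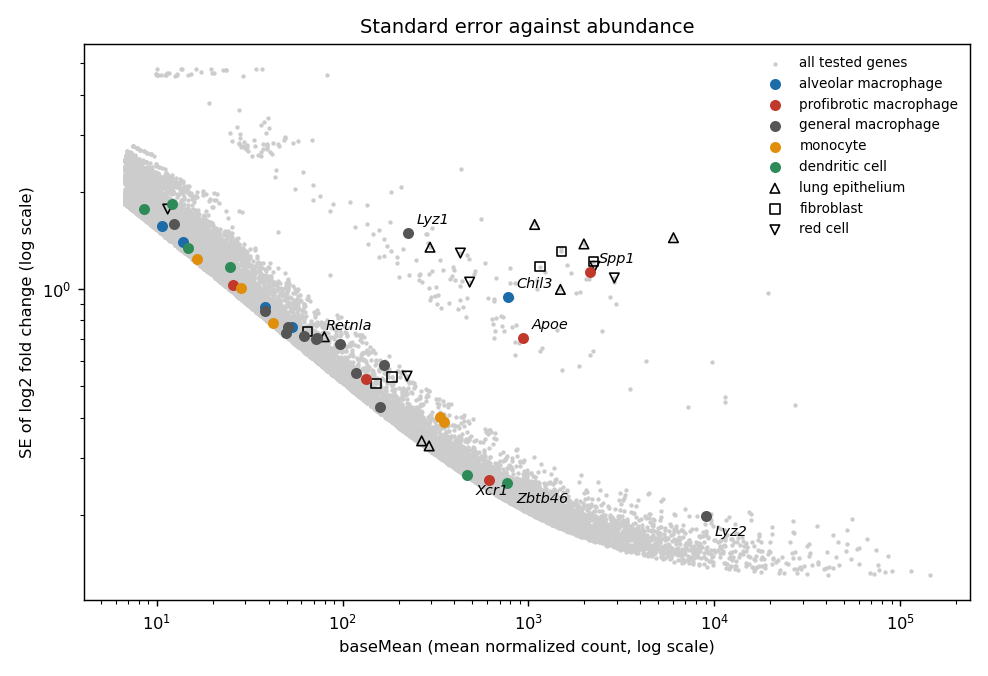
SE of the log2 fold change against baseMean (both log scales) for all tested genes in grey, members coloured by role, and lung epithelial, fibroblast and red cell genes as open symbols. Most members lie in the main band, while Spp1, Chil3, Lyz1 and Apoe, with SEs 3.18 to 6.23 times those of like genes, lie above it beside epithelial, fibroblast and red cell genes.

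Further genes of the same biology were followed in 9 companion lists of 143 genes in all, of which 131 had an adjusted p. At an adjusted p under 0.05, 1 was higher and 1 lower in KO per the authors' deposited table. The shares over all tested genes were 0.453% higher and 0.099% lower. At an unadjusted p under 0.05, 6 of the 131 were higher and 6 lower, against 9.62% higher and 3.95% lower over all tested genes. Vcan, which encodes versican, a matrix proteoglycan made by monocytes and also by fibroblasts, was higher in KO by a log2 of 2.95 ± 0.55 (adjusted p = 3.40e-04) at a baseMean of 95.5 per the authors' deposited table. Its derived means were 169 normalized counts in KO and 21.9 in WT. Csf2, the gene of GM-CSF, on which alveolar macrophages depend, fell by 0.62 ± 0.16 on the log2 scale (adjusted p = 0.0335) per the authors' deposited table, and it lost the call without the filter on low values and when the changes were taken relative to abundant genes or to genes of like abundance.

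The other companion genes did not pass. The list of myeloid lineage factors had 8 positive values of 14 and a median of 0.34, and held the immediate-early factor Nr4a1 (-0.26 ± 0.13) and Bhlhe40 (-0.19 ± 0.16), transcription factors that lymphocytes also make, per the authors' deposited table. Fc receptors and their adaptors had 9 positive of 11 and a median of 0.42, with the glucan receptor Clec7a at -0.21 ± 0.42 and the adaptor Tyrobp at 0.42 ± 0.53 per the authors' deposited table. Of 22 phagocytosis and lysosome genes 8 were positive, with a median of -0.07, and the saposin precursor Psap stood at -0.45 ± 0.15 (adjusted p = 0.125) and the protease Ctsd at -0.27 ± 0.20 per the authors' deposited table. Other alveolar and interstitial macrophage genes had 14 positive of 17 and a median of 0.47, led in abundance by Arg1 (-0.38 ± 0.19), also an ILC2 gene, and the invariant chain Cd74 (0.17 ± 0.23) per the authors' deposited table.

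Other monocyte genes, Vcan among them, had 10 positive of 14 and a median of 0.70, and the CSF axis genes, Csf2 among them, 3 of 8 and -0.12. Other dendritic cell genes had 10 positive of 17 and a median of 0.27, with Ptprcap, a CD45-associated protein that lymphocytes also make, at -0.48 ± 0.19 and the activation marker Cd83 at -0.07 ± 0.24 per the authors' deposited table. Chemokines of monocytes and macrophages had 12 positive of 14 and a median of 0.42, the neutrophil attractant Cxcl2 standing at -0.24 ± 0.20 and the interferon-induced Cxcl10 at 0.25 ± 0.22 per the authors' deposited table. Complement, oxidase and inflammatory genes had 13 positive of 18 and a median of 0.46, with Tnf at 0.31 ± 0.20 and the oxidase subunit Ncf4 at -0.31 ± 0.25 per the authors' deposited table. Over all tested genes the median was 0.08. These medians carry no test, and the lists share genes with each other and hold genes that lymphocytes also express.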

How the data were processed

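RNA from sorted lung ILC2s was made into full-length cDNA with a SMART-Seq HT kit, per the labels' protocols. Per the submitters' processing notes, HISAT2, Cufflinks and the mm10 build were used, with no roles stated. The sources used here do not give the counter, the strand setting or the filters.

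Each gene's row holds, per the file headers, baseMean, which is the mean normalized count (a signal), the log2 fold change with its error, a statistic (a score) and a p-value before and after adjustment, all deposited by the authors. Another 8 columns hold values per library under codes that match no sample label, and they were not used. Depth and replicate spread per library were thus not analysed here. The deposited statistic equalled fold over error within 5.35e-08, and Benjamini-Hochberg adjustment over 19193 genes matched the deposited adjusted p within 3.96e-05. With 2 pools per genotype, the p-values rest on few units, and whether the differences recur in other pools was not tested. The SE was at most 1.25 times the median SE of genes of like abundance for 26 of 34 tested members. The same held for 94.4% of all tested genes. How far an SE reflects the gene's own spread between pools, rather than its abundance, was not tested.

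Computed here (Python 3.11.15, pandas 2.3.3, scipy 1.17.1, Biopython 1.88) were sign reversal, 95% normal intervals, derived means assuming equal weight of the genotypes, counts per kb of merged exon length (GENCODE M21, mm10, 38388 identifiers matched), medians over a running window of tested genes nearest in baseMean, and motif matches. The window was checked on data simulated from its own trend, and its error was read only at a baseMean of at least 100. A fold is KO over WT.

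The members and lists were chosen with earlier results of these data known. Named were all 36 members, Nrp1, and from each companion list the genes past the test or else the 2 most abundant. 10 context lists cover other cells and ILC2s. Of these, 1 gene passed, Cd3g of the T cell list, at a log2 of -0.96 per the authors' deposited table. No gene of the B and plasma cell, neutrophil, granulocyte, endothelial or platelet lists did. Prg3 and Tpsb2 had no match. Of Itgam's identifiers the more abundant was used. Alternatives were other filters, protein-coding genes alone, centring and a looser threshold.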

Additional observations from a re-analysis of the deposited data

How the results depend on the processing

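The count of members called stayed at 0 in each direction under other filters, protein-coding genes alone, centring and a threshold of 0.1, and under removal of the running median, which was chosen after seeing the data. The smallest adjusted p of any member was that of Retnla in each, between 0.0525 when centred on abundant genes and 0.595 with the running median removed. Centring adds 0.25 to each log2 value, and Xcr1 alone of the members then turned sign, to a log2 of 0.13 that did not pass. With the running median removed 8 members turned sign, to -1.38 for Marco, -1.36 for Ly6c2, -0.82 for Cd163, -0.77 for Siglech, -0.45 for Clec9a, -0.28 for Cd209a, -0.0012 for Adgre1 and 0.051 for Xcr1. Of the single-member values over all these settings, 181 kept direction and call and 9 turned. The filters and the looser threshold leave log2 values unchanged, so no sign could turn under them. When centred 33 members kept direction and 1 turned, and with the running median removed 26 kept it and 8 turned. The members' median of 0.74 was 0.39 for the 20 with a baseMean of at least 50, 0.77 over all 36, 0.99 when centred and 0.33 with the running median removed. Over all genes 87 were higher and 19 lower as deposited. These counts were 21 and 2 without a filter, 22 and 13 at a baseMean of at least 50, 39 and 17 for protein-coding genes alone, 225 and 2 when centred, 266 and 40 at an adjusted p under 0.1, and 19 and 2 with the running median removed. The filters change how many genes are adjusted for, and centring shifts all values one way. Otherwise the cause was not tested. In the companion lists 1 gene was higher and 1 lower as deposited. Without a filter 1 was higher and 0 lower. When centred, and with the running median removed, 2 were higher (Vcan and Klf4) and 0 lower. Nrp1 kept its call throughout these settings. Of the members 30 were positive and 4 negative as deposited, 31 and 3 when centred, and 24 and 10 with the running median removed. No paired analysis was possible because the value columns per library match no sample. Fits without each replicate and with other size factors were not run for the same reason. Members with few reads have wide errors, and 3 of the 34 tested had intervals within 2-fold either way.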
